A study of Mus musculus with 12 samples.

Results

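The clock output factors described here are 7 transcription regulator genes, namely the PAR bZIP genes *Dbp*, *Tef* and *Hlf*, the related repressor gene *Nfil3*, and the E-box repressor genes *Bhlhe40*, *Bhlhe41* and *Ciart*. They were taken by symbol from the 47729 genes of the count table, and all 7 were found. The set was selected on gene function with the measured fold changes of stress vs. Ctrl and CORT vs. vehicle in these same libraries in view, so the members' values in those comparisons are a description and carry no test.

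RNA was measured in intestinal stem cells (ISCs) sorted by flow cytometry from small intestinal crypts, in 12 libraries of 4 groups with 3 libraries each. All mice carried *Lgr5-EGFP-IRES-CreERT2*, a knock-in that places EGFP under the control of the stem cell gene *Lgr5*, and the sort kept live EpCAM+ cells that were brightest for EGFP (Lgr5-EGFPhi) and negative for CD24, CD31, CD45 and TER119. The groups were untreated controls (Ctrl), mice held once in a tube for 3 h (stress), mice given 1 intraperitoneal injection of a cyclodextrin solution (vehicle), and mice given 1 injection of corticosterone at 5 mg/kg in that solution (CORT). According to the methods, controls of the restraint protocol went without food and water for as long as the restrained mice, and male and female mice of 8 to 10 weeks were used. The stress libraries are numbered 1+2, 3 and 4+5+6, and the joined numbers were read as pools of mice. The sex of the mice and the hour of collection are not given for single libraries, and restraint is described as given at varying hours of the day, so the part of clock time in the values below was not tested. Totals ranged from 15934907 to 17135770 counts in the Ctrl and stress libraries, from 16465961 to 31280267 in vehicle and from 29426183 to 69533214 in CORT.

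In the circadian clock, CLOCK and BMAL1 (the product of *Arntl*) bind E-boxes and switch on their own repressors and a layer of output factors. DBP, TEF and HLF are activators of that layer that bind D-boxes, and NFIL3 binds the same sites as a repressor. The products of *Bhlhe40* (DEC1) and *Bhlhe41* (DEC2) occupy E-boxes as repressors, and the product of *Ciart* (CHRONO) represses CLOCK and BMAL1. Glucocorticoids are known to set the phase of clocks outside the brain, the gut among them.

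The E-boxes in the promoters of the members are shown because CLOCK and BMAL1 bind this element, which need not be how every member is controlled. RefSeq promoter windows (GRCm38.p6, from 250 bases before a transcription start to 50 after it) were at hand for 6 of the 7 genes. In them, the canonical E-box CACGTG, which reads the same on both strands, was found in *Ciart*, *Tef* and *Bhlhe41*. The 6 matches are printed on the strand of the gene with 12 bases on either side and the E-box in capitals.

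Ciart, 116 bases before the start: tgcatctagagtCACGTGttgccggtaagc
Ciart, 58 bases before the start: cgcagggggaggCACGTGcagaaccgcacg
Ciart, 44 bases before the start: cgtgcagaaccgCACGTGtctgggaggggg
Tef, 127 bases before the upstream start: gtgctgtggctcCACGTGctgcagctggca
Tef, 138 bases before the internal start: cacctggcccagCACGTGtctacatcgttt
Bhlhe41, 153 bases before the start: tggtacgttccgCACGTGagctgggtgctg

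The *Ciart* stretches lie on the minus strand at chr3:95882327-95882356, chr3:95882269-95882298 and chr3:95882255-95882284, outside the annotated gene, and the last 2 overlap each other. The *Tef* stretches lie on the plus strand at chr15:81802534-81802563, within an untranslated part of an exon, and at chr15:81811264-81811293, in an intron before the internal start. The *Bhlhe41* stretch lies on the minus strand at chr6:145865556-145865585, with 3 of its 30 bases in an annotated untranslated exon and the rest upstream of the gene. Of 32851 mouse promoter windows, 7.15% held an E-box. No E-box of these letters was in the windows of *Dbp*, *Hlf* and *Nfil3*. Neither a D-box (TTATGTAA or TTACGTAA, both strands, 1.06% of windows), nor a RORE (0.384%), nor a glucocorticoid response element written as AGAACA facing its reverse complement across 3 bases (0.00913%) was in a window of any of the 6 genes. A match is a description of letters in the window and not a binding site.

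*Dbp* and *Tef* were far lower, and *Nfil3* was higher, in ISCs of stressed and CORT-treated mice than in their controls. *Bhlhe40* was 1.27-fold higher after stress and close to its controls after CORT. *Ciart* and *Hlf* were near the limit of counting, the low levels of *Dbp* in treated libraries rested on few counts, and *Bhlhe41* had no count in any library. Levels below are in CPM, the count of a gene scaled to a common library size with TMM factors over the 12 libraries. Floors and counts cover counting error only.

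**Figure D1:**
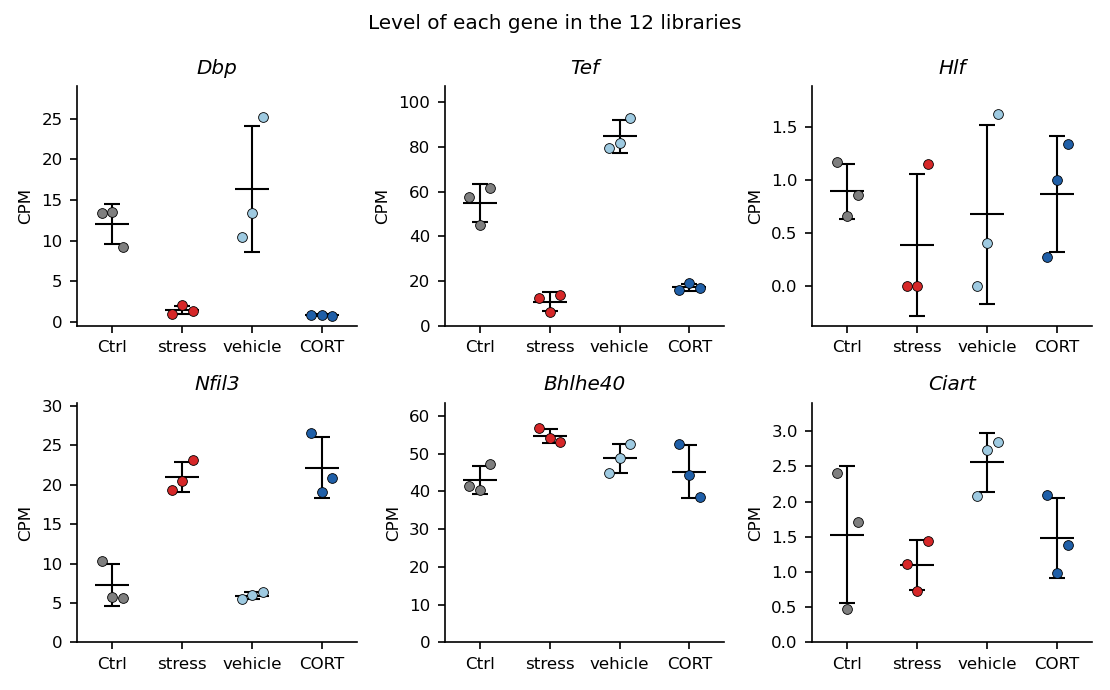
Level (CPM) of the 6 members with counts in each of the 12 libraries. Points are libraries, bars are mean ± SD over 3 libraries, and the axes differ between panels. The *Dbp* and *Tef* points of stress and CORT lie below all Ctrl and vehicle points, and the *Nfil3* points lie above them.

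*Dbp* encodes D-site albumin promoter binding protein, a transcript known for one of the largest daily swings of the clock output. It had 13.4, 13.5 and 9.21 CPM in the Ctrl libraries and 1.057, 2.06 and 1.33 CPM in the stress libraries. It had 10.5, 13.4 and 25.1 CPM in vehicle and 0.897, 0.931 and 0.757 CPM in CORT. Every treated library lay below every control library, and vehicle overlapped Ctrl and was the most uneven group, with library 6 highest. The CORT libraries lay below the stress libraries by a small gap, from 0.931 CPM in CORT library 4 to 1.057 CPM in stress library 1+2. That stress library held 17 counts, the worth of 4.25 read pairs, so the order of stress and CORT rests on few reads. The mean was 12.0 ± 2.45 CPM in Ctrl against 1.48 ± 0.520 in stress, and 16.3 ± 7.77 CPM in vehicle against 0.862 ± 0.0922 in CORT (SD, n = 3). In the edgeR fit, *Dbp* was 8.08-fold lower after stress (log2 fold change -3.01, SE 0.33) and 18.8-fold lower after CORT (-4.24, SE 0.35). Without vehicle library 6, the log2 fold change after CORT was -3.78. From the lowest fold change upward, *Dbp* was number 4 of 13722 genes tested in stress vs. Ctrl and number 1 of 14656 in CORT vs. vehicle. The treated libraries held few counts of it, with totals of 74 over the stress and 137 over the CORT libraries against 606 over Ctrl and 1182 over vehicle.

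*Dbp* (chr7:45705247-45710203 on the plus strand, mm10) overlaps *Sphk2*, a sphingosine kinase gene on the opposite strand, over 539 of its 2993 annotated exon bases. The library protocol describes no strand marking, so reads from the shared stretch cannot be told apart. *Sphk2* had 101 ± 6.76 CPM in Ctrl against 69.6 ± 8.45 in stress, and 114 ± 2.90 CPM in vehicle against 64.0 ± 3.37 in CORT (SD, n = 3). Its differences were smaller than those of *Dbp*, with log2 fold changes of -0.54 (adjusted p = 0.0332, edgeR) after stress and -0.84 (adjusted p = 3.1e-04) after CORT.

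*Tef* encodes thyrotroph embryonic factor, a D-box activator with a milder daily rhythm than DBP. In the Ctrl libraries it had 57.6, 45.2 and 61.4 CPM and in the stress libraries 12.3, 6.005 and 13.9 CPM. The vehicle libraries had 79.3, 81.5 and 93.0 CPM and the CORT libraries 15.9, 19.1 and 16.9 CPM. None of the 4 groups overlapped another, in the rising order stress, CORT, Ctrl and vehicle, and stress library 3 was the lowest of all 12. *Tef* was 5.08-fold lower after stress (log2 fold change -2.35, SE 0.26) and 4.91-fold lower after CORT (-2.30, SE 0.10). With 2747 counts over Ctrl, 538 over stress, 5605 over vehicle and 2681 over CORT, it rests on many more counts than *Dbp*. The gene lies at chr15:81802421-81826861 on the plus strand, and the antisense gene *Gm17597*, which shares 2.50% of its exon bases, was at 0 CPM in all groups but vehicle (0.101 CPM).

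*Hlf*, for hepatic leukemia factor, is the third D-box activator. It had 1.17, 0.658 and 0.854 CPM in Ctrl, 0, 0 and 1.16 in stress, 0, 0.407 and 1.62 in vehicle, and 0.269, 0.999 and 1.34 in CORT. All groups overlapped. Of the 12 libraries, 5 were at or under 12 counts, the worth of 3 read pairs here, which was taken as the floor of counting. The log2 fold changes of -1.18 (SE 1.15) after stress and 0.25 (SE 1.01) after CORT had errors about as large as or larger than the values. Without stress library 4+5+6 the remaining stress libraries were both at 0, so no fold can be given, and after CORT the log2 fold change ranged from -0.29 without vehicle library 3 to 2.05 without vehicle library 6. The gene lies at chr11:90336536-90390895 on the minus strand.

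*Nfil3*, the repressor that competes for D-boxes, lay the other way from *Dbp* and *Tef*. Its levels were 10.3, 5.80 and 5.67 CPM in Ctrl against 19.3, 20.5 and 23.1 CPM in stress. They were 5.47, 5.99 and 6.38 CPM in vehicle against 26.6, 19.1 and 20.9 CPM in CORT. All 6 treated libraries were above all 6 control libraries, of which Ctrl library 1 was the highest. *Nfil3* was 2.89-fold higher after stress (log2 fold change 1.53, SE 0.24) and 3.71-fold higher after CORT (1.89, SE 0.17). After stress, *Nfil3* was not past the thresholds used below without Ctrl library 2, Ctrl library 3, stress library 1+2 or stress library 4+5+6, although the log2 fold change stayed between 1.38 and 1.87 with any single library left out. It lies at chr13:52967209-52981073 on the minus strand.

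The balance of activators and repressor can be set out per length, as the sum of the FPKM of *Dbp*, *Tef* and *Hlf* over the FPKM of *Nfil3*. This ratio was 4.54, 6.96 and 8.07 in Ctrl and 0.473, 0.306 and 0.432 in stress. It was 10.5, 10.1 and 12.6 in vehicle against 0.371, 0.631 and 0.506 in CORT. The activators outweighed *Nfil3* in all 6 control libraries, and *Nfil3* outweighed their sum in all 6 treated libraries. The ratio is built from the values that chose the genes and carries no test. Per length, *Tef* was the main activator transcript, with 13.0 ± 2.56 FPKM in Ctrl against 6.42 ± 1.24 for *Dbp*, 3.21 ± 1.15 for *Nfil3* and 0.139 ± 0.0421 for *Hlf* (SD, n = 3). In stress, *Nfil3* led with 9.25 ± 1.09 FPKM against 2.84 ± 1.04 for *Tef* and 0.761 ± 0.259 for *Dbp*.

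**Figure D2:**
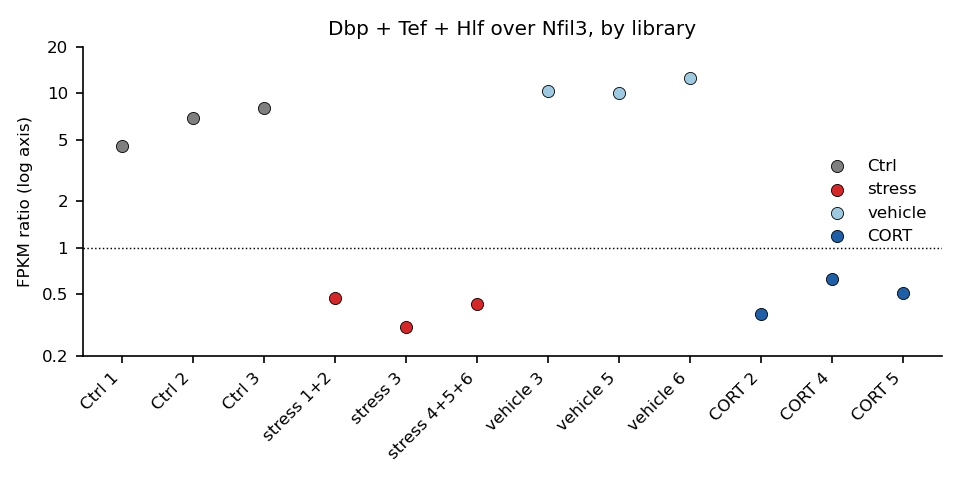
Ratio of summed *Dbp*, *Tef* and *Hlf* FPKM to *Nfil3* FPKM in each library, on a log axis with a dotted line at 1. The 6 control libraries lie between 4.54 and 12.6 and the 6 treated libraries between 0.306 and 0.631.

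*Bhlhe40* varied little between groups. It had 41.4, 40.5 and 47.1 CPM in Ctrl and 56.9, 54.2 and 53.0 CPM in stress, so the groups did not overlap although the log2 fold change was 0.35 (SE 0.10). Vehicle had 44.8, 48.8 and 52.6 CPM and CORT 52.5, 44.4 and 38.6 CPM, with overlap and a log2 fold change of -0.11 (SE 0.12). Per length its level was close to that of *Tef* in Ctrl, at 12.7 ± 1.45 FPKM (SD, n = 3). The gene lies at chr6:108660629-108666925 on the plus strand, and the antisense gene *0610040F04Rik* shares 2.50% of its exon bases and had at most 0.207 CPM in a group mean.

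*Bhlhe41* (chr6:145858243-145865558, minus strand) had 0 counts in every library, which allows up to 0.179 to 0.746 CPM per library at the floor of 12 counts. The neighbour *Gm43909*, which shares 19.0% of its exon bases on the opposite strand, was at 0 as well. *Ciart* (chr3:95878503-95882251, minus strand) had 2.398, 0.479 and 1.71 CPM in Ctrl against 1.12, 0.728 and 1.44 in stress, and 2.08, 2.74 and 2.85 CPM in vehicle against 2.09, 0.982 and 1.38 in CORT. The vehicle libraries were the highest on average, but 1 Ctrl and 1 CORT library lay among them, and the log2 fold changes were -0.47 (SE 0.64) after stress and -0.79 (SE 0.38) after CORT. Without Ctrl library 1, the log2 fold change after stress was 0.0078. The gene *C920021L13Rik*, which spans *Ciart* on the opposite strand without sharing exon bases, had 1.32 CPM in Ctrl against 1.64 in stress, and 0.640 CPM in vehicle against 0.897 in CORT.

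**Figure D3:**
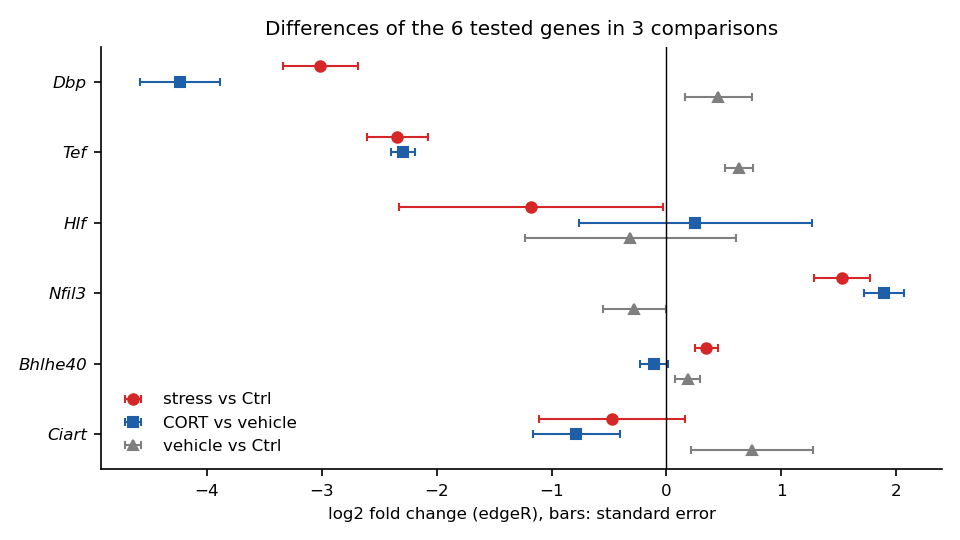
Log2 fold changes of the 6 tested members with their standard errors from edgeR in 3 comparisons. *Dbp* and *Tef* lie far to the left and *Nfil3* to the right in both treatments, and all vehicle vs. Ctrl estimates lie between -0.31 and 0.74.

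Of the 7 members, 6 passed the filter on low counts. Genes are called here at an adjusted p under 0.05 and more than 2-fold, which 0.751% of 13722 genes passed in stress vs. Ctrl (84 higher, 19 lower) and 1.87% of 14656 in CORT vs. vehicle (166 higher, 108 lower). Of the members, *Nfil3* (higher), *Dbp* and *Tef* (lower) passed both thresholds in each of the comparisons, and since these contrasts chose the genes, nothing is read from those counts. The groups did not overlap for 4 of the 6 members after stress and for 3 of 6 after CORT, against 20.4% and 28.7% of all genes tested. The median log2 fold change of the tested members was -0.83 after stress and -0.45 after CORT, beside -0.0028 and 0.014 over all genes tested. In bulk samples, fewer cells that carry a transcript and less of it per cell cannot be told apart.

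The contrast of the control groups was not used to choose the genes and could be tested, although it takes the same vehicle and Ctrl libraries as the comparisons above. The vehicle mice were injected and the Ctrl mice were not. Per the methods, controls of the restraint protocol went without food and water, which is not described for vehicle mice. These differences between the 2 control groups cannot be told apart here. *Tef* was 1.55-fold higher in vehicle than in Ctrl (log2 fold change 0.63, SE 0.12, adjusted p = 0.0374, edgeR quasi-likelihood test), and all 3 vehicle libraries lay above all 3 Ctrl libraries. At any fold, 0.799% of 13642 genes passed at that threshold, and at more than 2-fold 0.359% did, so *Tef* was not among the genes called. It was the only member whose groups did not overlap, against 16.3% of all genes tested. The other tested members did not pass, with log2 fold changes of 0.45 for *Dbp* (adjusted p = 0.640), -0.28 for *Nfil3* (0.781), 0.19 for *Bhlhe40* (0.595), 0.74 for *Ciart* (0.676) and -0.31 for *Hlf* (0.946) in the same edgeR fit. Without vehicle library 6 the log2 fold change of *Dbp* was -0.0068. The adjusted p of *Tef* ranged from 0.000286 with DESeq2 to 0.324 over the alternatives, and was over 0.05 in 10 of 14 of them.

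The core clock was read from a list of 21 genes, of which 20 were tested and *Rorb* was not. Among the activators, *Arntl* and *Npas2* rose in both comparisons, whereas *Clock* gave log2 fold changes of 0.04 and -0.15 that did not pass. Among the repressors, *Per2* fell in both comparisons, *Per3* and *Cry1* fell after CORT, *Nr1d1* fell after stress, and *Per1*, which glucocorticoids are known to induce directly, rose after CORT. In all, 2 genes were called higher and 2 lower after stress, and 3 higher and 3 lower after CORT, with list medians of -0.09 and -0.04 beside -0.0028 and 0.014 over all genes tested.

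In single libraries, *Arntl* had 24.2, 27.2 and 25.1 CPM in Ctrl and 49.3, 62.8 and 49.2 in stress, and 20.1, 12.7 and 15.7 in vehicle and 48.8, 33.1 and 33.7 in CORT. Its log2 fold changes were 1.08 (SE 0.13, adjusted p = 0.00331, edgeR) and 1.25 (SE 0.20, adjusted p = 0.0063). *Npas2*, which can stand in for *Clock*, gave 1.01 (SE 0.22, adjusted p = 0.0475) and 1.399 (SE 0.15, adjusted p = 8.3e-04). In every treated library both transcripts were above all libraries of the control group.

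*Per2*, a repressor partner of the cryptochromes, had 25.9, 19.4 and 29.5 CPM in Ctrl against 12.7, 10.9 and 7.22 in stress, and 31.2, 39.2 and 36.3 in vehicle against 13.8, 15.5 and 12.7 in CORT. The treated libraries lay below the controls without overlap, with log2 fold changes of -1.28 (SE 0.23, adjusted p = 0.0255, edgeR) and -1.35 (SE 0.13, adjusted p = 6.5e-04). *Per3* gave -1.27 (adjusted p = 0.0750) after stress, which did not pass, and -1.12 (adjusted p = 0.0077) after CORT. *Cry1* gave -0.86 (adjusted p = 0.317) and -1.11 (adjusted p = 0.0335), and *Per1* 0.83 (adjusted p = 0.00493, under 2-fold) and 1.33 (adjusted p = 0.00255). *Nr1d1*, which encodes the nuclear receptor REV-ERB alpha, gave -1.12 (adjusted p = 0.0176) and -0.90 (adjusted p = 0.0261, under 2-fold), and its relative *Nr1d2* -0.70 (adjusted p = 0.0148) and -0.71 (adjusted p = 0.00425), both under 2-fold. The kinase gene *Csnk1d* and the F-box gene *Fbxw11*, which act on PER proteins and had the highest mean CPM of the list, gave estimates between -0.18 and 0.21 that did not pass.

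**Figure D4:**
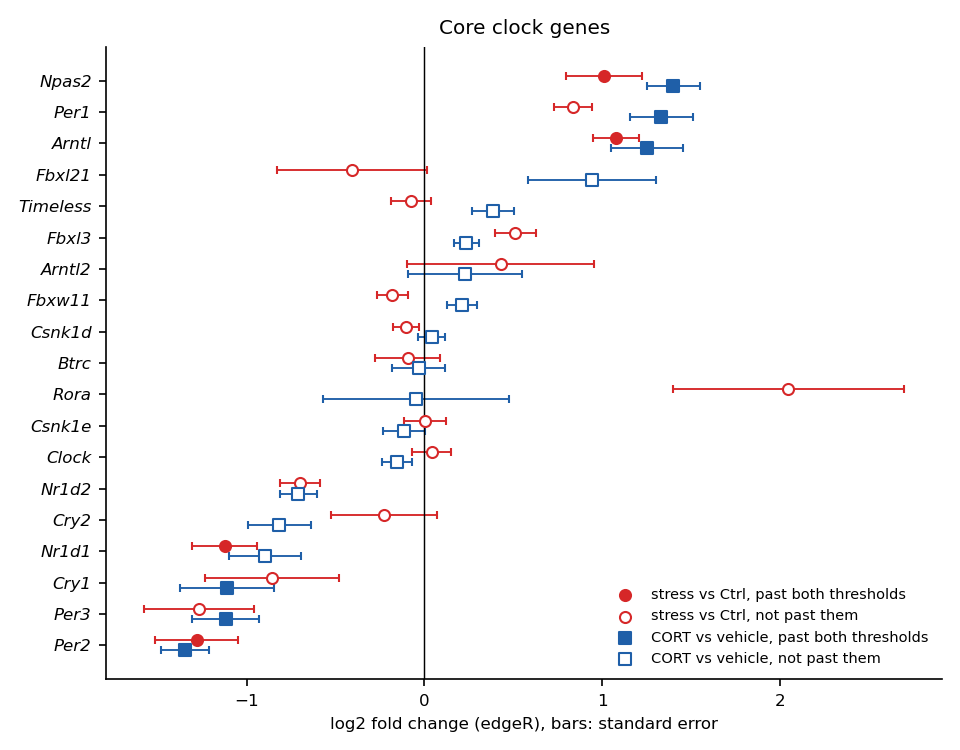
Log2 fold changes with standard errors (edgeR) of core clock genes in stress vs. Ctrl (circles) and CORT vs. vehicle (squares), ordered by the CORT estimate. Filled symbols mark genes past both thresholds. *Npas2*, *Per1* and *Arntl* lie at the top and *Per2*, *Per3* and *Cry1* at the bottom.

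The estimates in stress and CORT can be compared by the test of their difference, over all 12 libraries, which 0.388% of 14415 genes passed. For none of the 20 tested core clock genes did that difference pass (edgeR), and the adjusted p of the 7 that were called in either treatment lay between 0.391 for *Per1* and 0.958 for *Per2*, which does not show that the effects were equal. Between vehicle and Ctrl, 0 of the 20 core clock genes were called by edgeR or by DESeq2, with 7 at an unadjusted p under 0.05. The calls after stress depend on single libraries and numbered between 1 and 3 in place of 4 when a library was left out, and 0 in limma on log2(FPKM + 1). *Arntl* was not called without stress library 3, *Npas2* without Ctrl 1, Ctrl 2, stress 1+2 or stress 4+5+6, *Per2* without Ctrl 1, Ctrl 2, Ctrl 3 or stress 4+5+6, and *Nr1d1* without Ctrl 1, Ctrl 2, Ctrl 3, stress 1+2 or stress 3. After CORT, *Per3* was not called without CORT 5 and *Cry1* without vehicle 3, vehicle 6, CORT 4 or CORT 5, and with limma on log2(FPKM + 1) 3 of the 6 calls were left, or 1, that of *Per2*, without a filter on low values.

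Outside the members, the genes whose level over the 12 libraries was most like that of *Tef* were *Per3*, *Per2*, *Efna3*, *Abi3* and *Dok7*. Their root mean square differences were 0.621 to 0.663 in centred log2(CPM + 1), where *Tef* itself spread by 1.21. Those most like *Dbp*, again outside the members, were *Lipg*, *Pik3ap1*, *Dok7*, *Efna3* and *Zfpm1*, at 0.769 to 0.885 against its own 1.43. The members were left out of both rankings, so the likeness of *Dbp* and *Tef* to each other is not given. The likeness was taken over 13407 genes tested in all 3 comparisons, and since all 12 libraries of 4 groups enter it, it reflects the group differences. *Lipg*, which encodes endothelial lipase, had 29.97 CPM in Ctrl against 13.7 in stress, and 31.4 CPM in vehicle against 6.80 in CORT, and *Zfpm1*, which encodes the GATA cofactor FOG1, had 282, 135, 286 and 122 CPM. *Efna3*, an ephrin gene, had 33.6, 14.8, 45.7 and 16.3 CPM in the same order.

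Genes that PAR bZIP factors are known to drive in liver and kidney held no call in the direction of *Dbp* and *Tef*. Of 11 such genes, 8 were tested, and the drug-metabolising *Cyp2a4* and the bile acid enzyme *Cyp7a1* were at 0 in every group. After stress 1 was called, the cytochrome gene *Cyp2b10*, which was higher, and 1 after CORT, the fatty acid receptor gene *Ppara*, which was higher, and none was called lower. The median log2 fold changes were 0.23 and 0.12. *Cyp2b10* had 1.23, 1.495 and 1.89 CPM in Ctrl and 7.15, 3.94 and 18.2 in stress, with stress library 4+5+6 highest (log2 fold change 2.66, SE 0.53, adjusted p = 0.0358, edgeR), and in 9 of 14 alternatives it was not called, among them those without any 1 of the Ctrl libraries, stress 1+2 or stress 4+5+6. The stress libraries had the same order in *Cyp2b10* as in the median of 6 enterocyte markers (121.8, 64.3 and 285.0 CPM), and the part of enterocytes in this value was not tested. *Ppara* had 15.8, 26.7 and 14.8 CPM in vehicle and 45.3, 56.6 and 39.0 in CORT (1.30, SE 0.23, adjusted p = 0.00916). *Alas1*, the first enzyme of heme synthesis, *Por*, which supplies electrons to cytochromes P450, and the transporter gene *Abcb1a* passed the adjusted p after CORT as lower but stayed under 2-fold, with -0.43, -0.39 and -0.88. *Pdxk*, which makes active vitamin B6, gave -0.15 and -0.25, and neither passed.

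**Figure D5:**
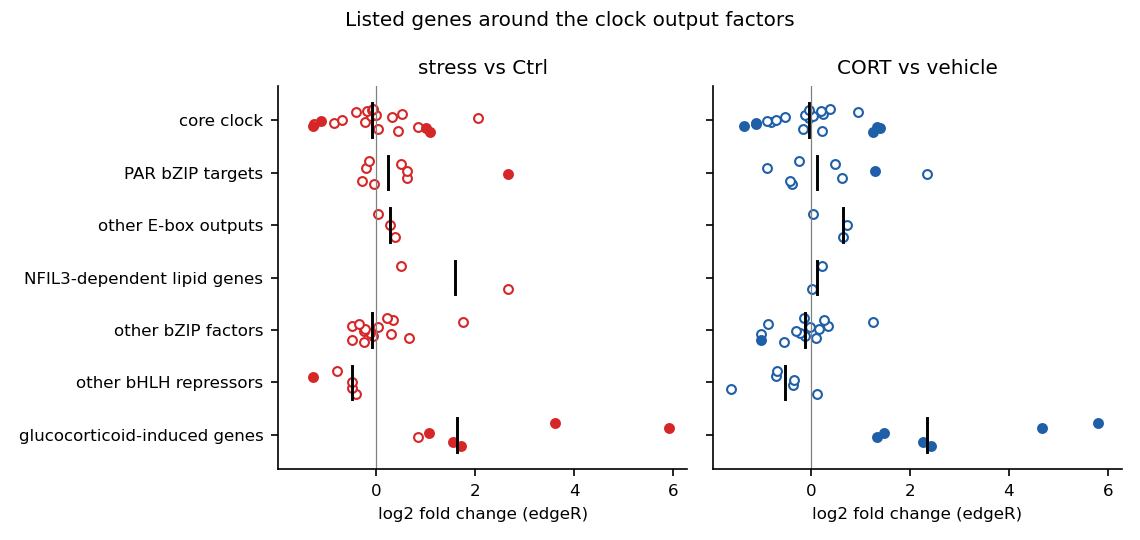
Log2 fold changes (edgeR) of the tested genes of 7 lists in stress vs. Ctrl and CORT vs. vehicle. Filled points passed both thresholds, black bars are list medians, and vertical offsets only separate the points. *Zbtb16* and *Sgk1* of the glucocorticoid-induced genes lie furthest to the right, and the PAR bZIP targets spread to both sides of 0.

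Of 4 further genes with clock-driven E-boxes, *Usp2*, *Wee1* and *Nampt* were tested, and *Avp* was at 0. None was called after stress or CORT at 2-fold by edgeR, with 2 of 3 at an unadjusted p under 0.05 in each. *Wee1*, a kinase that holds cells before mitosis, gave 0.73 (adjusted p = 0.00299) after CORT and the deubiquitinase gene *Usp2* 0.65 (adjusted p = 0.0142). *Nampt*, which makes NAD, gave 0.03 and 0.05. Of 4 lipid genes tied to NFIL3 in the intestine and liver, *Fabp4* was at 0, *Scd1* was too low to be tested, and *Cd36* and *Cyp2e1* were tested and not called in either comparison, with 1 and 0 of them at an unadjusted p under 0.05. *Cd36*, a fatty acid transporter gene, gave 2.66 (adjusted p = 0.376, edgeR) after stress, with at most 3.05 CPM in a group mean, and 0.01 (0.993) after CORT, and *Cyp2e1* gave 0.50 (adjusted p = 0.0948) after stress and 0.23 (0.552) after CORT.

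The D-box factors were set beside 15 other bZIP genes, of which 14 were tested. After stress 0 were called by edgeR, with 4 at an unadjusted p under 0.05, and after CORT 1 was, *Cebpb*, at -1.01 (adjusted p = 0.00232), with vehicle 32.3, 38.1 and 43.8 CPM against 20.01, 17.8 and 19.3 in CORT. It was not called without vehicle library 6, CORT library 4 or a filter on low counts, where it stayed at an adjusted p under 0.05 but not past 2-fold. *Atf4* and *Xbp1*, factors of the stress response of protein synthesis, gave -0.13 and -0.35 after stress, which did not pass, and *Xbp1* gave -0.87 (adjusted p = 0.0142) after CORT. *Cebpa*, which encodes a C/EBP factor, gave -0.55 (adjusted p = 0.00425) after CORT, also under 2-fold. The list medians were -0.09 and -0.13. Of 7 other repressors with helix-loop-helix domains, *Id2*, an inhibitor of helix-loop-helix factors, was called lower after stress, at 34.04, 28.6 and 27.0 CPM in Ctrl against 12.9, 12.9 and 10.9 in stress (log2 fold change -1.29, adjusted p = 0.00334, edgeR), and was called under all 14 alternatives. After CORT 0 of 6 tested were called by edgeR, with 3 at an unadjusted p under 0.05, and the medians were -0.50 and -0.53. *Hes1* and *Hes6*, the list's genes with the highest mean CPM, gave -0.41 and -0.50 after stress and 0.11 and -0.37 after CORT, none of which passed.

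Of 6 genes known to be induced by glucocorticoids, 5 were called higher after stress and 6 after CORT, with medians of 1.63 and 2.35. *Sgk1*, a kinase gene, had 16.6 ± 4.20 CPM in Ctrl against 202 ± 46.7 in stress, and 6.91 ± 0.556 CPM in vehicle against 389 ± 276 in CORT (SD, n = 3). *Fkbp5*, which encodes a chaperone partner of the glucocorticoid receptor, gave 1.72 and 2.42, *Tsc22d3* 1.54 and 2.27, *Klf9* 1.07 and 1.48, and *Zbtb16* 5.91 and 4.67. With 1.001 ± 1.16 CPM in Ctrl and 6.82 ± 6.75 in vehicle (SD, n = 3), *Zbtb16* moved to 7.50 without Ctrl library 1 and to 5.76 without vehicle library 5. The list was chosen with these results known and is not independent evidence, and *Klf9* was not called after stress without stress library 1+2. Between vehicle and Ctrl, *Fkbp5* was called higher (1.42, adjusted p = 4.0e-04) and *Sgk1* lower (-1.25, adjusted p = 0.0206), the latter not without Ctrl 1, Ctrl 2 or vehicle 6. Of the other lists of this and the preceding paragraphs, none had a gene called between vehicle and Ctrl, and *Abcb1a* (-0.78, adjusted p = 0.0153) and *Usp2* (0.68, adjusted p = 0.0206) passed the adjusted p under 2-fold.

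The sort was checked by markers. The 6 ISC markers summed to 10690 to 12090 CPM in Ctrl and 11320 to 13940 in stress, and to 10680 to 11150 in vehicle and 10880 to 12120 in CORT, and *Olfm4* made up most of the sum. Their median was 607, 551 and 569 CPM in Ctrl against 526, 521 and 494 in stress, without overlap, and 548, 584 and 526 CPM in vehicle against 434, 473 and 518 in CORT, also without overlap. *Ascl2*, a regulator of stem cell identity, was called lower after stress (-1.23, adjusted p = 3.4e-04, edgeR), and after CORT *Ascl2* (-0.9975, adjusted p = 0.0114), *Lgr5* itself (-0.43, adjusted p = 0.0277) and *Smoc2* (-0.31, adjusted p = 0.0474) were lower at under 2-fold. Of the blood markers *Ptprc*, *Cd3e*, *Hba-a1* and *Lyz2* had group means of at most 0.366 CPM, and the sum was carried by *Cd74*, which the epithelium can also express. Of 6 stromal and endothelial markers, *Kdr* and *Col3a1* were at 0 throughout and the sum was at most 3.24 CPM in any library, and *Pecam1* was called higher after CORT, though not with any 1 of 5 libraries left out, at 2.35 ± 0.885 CPM against 0.544 ± 0.356 in vehicle.

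Enterocyte markers moved with the stress group. The median level of the 6 was 24.3, 21.2 and 24.9 CPM in Ctrl and 121.8, 64.3 and 285.0 CPM in stress, without overlap, and it was 18.5, 39.6 and 22.9 CPM in vehicle against 8.32, 19.2 and 17.9 in CORT. No marker was at 0, and *Alpi*, *Apoa1*, *Apoa4* and *Fabp1* were called higher, though none of them when any 1 of the Ctrl libraries was left out. *Alpi* and *Apoa4* were also not called without stress library 1+2. With any single library left out the log2 fold changes ranged from 2.74 to 4.05 for *Alpi*, 2.21 to 3.46 for *Apoa1*, 1.67 to 3.02 for *Apoa4* and 2.202 to 3.81 for *Fabp1*, with the lowest of each without stress library 4+5+6, and without stress library 3 the call of *Alpi* had an adjusted p of 1.2e-04 (edgeR). Stress library 3, with the lowest enterocyte median of the 3, had the lowest *Tef* and the highest *Dbp*. Without library 4+5+6, which had the highest, the log2 fold changes after stress were -2.94 for *Dbp*, -2.58 for *Tef* and 1.46 for *Nfil3*. In CORT vs. vehicle, where *Dbp* and *Tef* were also lower and *Nfil3* higher, none of the enterocyte markers was called by edgeR (3 were at an unadjusted p under 0.05, and *Fabp2* gave 0.46 at an adjusted p of 0.0251, under 2-fold), and the list median was -0.05. Paneth markers summed to 135.8 to 173.4 CPM in Ctrl, 168.7 to 263.3 in stress, 185.7 to 211.2 in vehicle and 104.1 to 115.9 in CORT, without overlap between vehicle and CORT. After stress all 6 had positive estimates (median 0.57), of which *Mmp7* passed the adjusted p at under 2-fold (0.87, adjusted p = 0.0285, edgeR) and the other 5 did not pass. After CORT all 6 had negative estimates (median -0.67), *Mmp7* was called lower (-1.32, adjusted p = 4.8e-04, edgeR), and *Defa24*, *Itln1* and *Defa17* passed the adjusted p (0.0326, 0.0384 and 0.0204) at under 2-fold. Goblet markers summed to 529.7, 666.1 and 521.5 CPM in Ctrl against 884.8, 500.9 and 1352 in stress, so that the groups overlapped through stress library 3, and the stress libraries had the order of the enterocyte medians. After stress 5 of the 6 goblet markers had positive estimates (median 0.51), of which *Clca1* was called higher (1.59, adjusted p = 0.0392) and *Muc2* (0.95, adjusted p = 0.173) and *Fcgbp* (0.91, adjusted p = 0.22) did not pass (edgeR). In vehicle the goblet sum was 444.1 to 638.7 CPM and in CORT 411.4 to 754.6. Of the tuft markers *Pou2f3* was called lower after CORT, and 0 enteroendocrine markers were called in either by edgeR, with 1 at an unadjusted p under 0.05 in each. *Clca1* and *Pou2f3* were each not called with any 1 of 5 libraries left out. The part of other cell types in the values of the clock output factors, after stress or after CORT, was not tested.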

How the data were processed

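The authors sequenced paired reads of 150 bases, aligned them to mm10 with HISAT2 (2.2.1 in the submitters' processing notes, which also name StringTie 2.2.1) and, per their methods, counted reads with featureCounts and tested with DESeq2. What the authors deposited is an estimated count for each gene in each of the 12 libraries, not divided by library size. In single-transcript genes the deposited coverage times length gave 75 bases per count, so 1 read pair is worth up to 4 counts. The counts were rounded. The authors also deposited FPKM, used here for the activator ratio, levels per length and alternatives. No column was left without a sample (0 columns).

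The test was edgeR 4.0.16 in R 4.3.3 (quasi-likelihood, TMM, filterByExpr, Benjamini-Hochberg over all genes tested) on the 6 libraries of a comparison. SE was the absolute log2 fold change over the square root of F. Code was tested on simulated data. Per the methods, each group had 3 or more independent biological samples; the labels do not tie libraries to mice, so p-values measure the spread between libraries, and precision is limited by depth and 3 libraries a group. Alternatives were DESeq2 1.42.0, its size factors, other filters, all libraries in 1 fit, limma 3.58.1 on log2(FPKM + 1) or log2(FPKM + 0.1), and each library left out. Members and lists were chosen with earlier results of these data known. Named are all members, listed genes called in a comparison and the 2 tested genes of each list with the highest mean CPM. Genes overlapping a member and the 5 genes outside the members nearest to *Dbp* and to *Tef* are also named. Some others of the lists are named as well, chosen after their values were seen. Gene symbols came from the table, and 47224 identifiers matched the reference list. Some listed genes are not reported here.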

Additional observations from a re-analysis of the deposited data

Results flagged for a closer look

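Among the listed genes outside the members, the effects of stress and CORT differed for 2 cell type markers in the test of the difference over 12 libraries (edgeR, adjusted p under 0.05). For the enterocyte gene *Fabp1*, stress gave a log2 fold change of 3.39 and CORT -1.26, a difference of 4.65 (adjusted p = 0.0294). For the Paneth cell protease gene *Mmp7*, stress gave 0.87 and CORT -1.32, a difference of 2.18 (adjusted p = 6.9e-04). The stress value of *Fabp1* was 2.202 without stress library 4+5+6, and it was not called without Ctrl 1, Ctrl 2 or Ctrl 3. Both were also called higher in vehicle than in Ctrl, at 1.92 and 2.04, but *Fabp1* not in 7 of 14 alternatives, among them again those without 1 of the Ctrl libraries, and *Mmp7* not in 1 of 14, limma without a filter.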

How the results depend on the processing

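The signs of *Dbp*, *Tef* and *Nfil3* were the same under all 14 alternatives in both treatments. *Dbp* was past both thresholds in all of them, and all 3 were after CORT. After stress, *Nfil3* was not past them without a filter on low counts or without Ctrl library 2, Ctrl library 3, stress library 1+2 or stress library 4+5+6, and with limma on log2(FPKM + 1) without a filter only 1 member (*Dbp*) passed. The log2 fold change of *Dbp* ranged from -3.32 to -2.07 after stress and from -4.47 to -2.69 after CORT, and the smallest sizes came from log2(FPKM + 1), whose pseudocount shrinks low genes. Members called numbered 2 to 3 after stress and 3 to 3 after CORT when a library was left out.

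Genes called after stress numbered 103 and were 173 with DESeq2, 32 without a filter, 44 with limma on log2(FPKM + 1), 50 on log2(FPKM + 0.1), 18 without a filter on FPKM, and 36 to 278 with a library left out (278 without stress 3, 52 without stress 1+2, 63 without stress 4+5+6, and 44, 43 and 36 without Ctrl 1, Ctrl 2 and Ctrl 3). After CORT 274 became 154 and 107 with limma on log2(FPKM + 1) with and without the filter, and 178 (without CORT 4) to 268 with a library left out. For vehicle vs. Ctrl 49 became 87 with DESeq2, 20, 21 and 0 with limma in the order above, and 17 (without Ctrl 1) to 103 (without vehicle 5) with a library left out. The difference of the effects gave 56 genes, and 12 (without Ctrl 1) to 241 (without stress 3) with a library left out. Core clock calls after stress were 1 without a filter on low counts. The causes were not tested. Settings for core clock genes, other listed genes and the difference were added after seeing the data. No paired analysis was possible because the groups compared share fewer than 2 replicate numbers. Depth limits *Hlf*, *Ciart*, *Bhlhe41* and the levels of *Dbp* in the treated libraries.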
